A study of Homo sapiens with 18 samples.

Results

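The genes described here are 9 amino acid transporters, SLC7A11, SLC7A5, SLC3A2, SLC7A1, SLC38A1, SLC38A2, SLC1A4, SLC1A5 and SLC6A9, taken by symbol from the 26668 genes of the expression table. RNA was sequenced from 3 established lines of human pancreatic cancer (PANC1, PATU8988T and MIA PaCa-2), with 3 control and 3 OFD1 knockdown libraries of each line, 18 libraries in all. OFD1 encodes a protein of centrioles and of the base of the primary cilium, and the comparison asks how its loss changes gene expression in each line. The knockdown cultures of all lines carried a Tet-on shRNA against OFD1 and had received doxycycline for 72 h. The control labels give genotype WT, a control shRNA and no treatment, whereas the methods of the study describe DMSO given to the shOFD1 lines, so the cells behind the controls were not settled here. Doxycycline was given to every knockdown and to no control culture, and its own effect cannot be told apart from that of the knockdown. The series text places controls at day 0 and knockdown at day 3, so time in culture cannot be told apart from knockdown if that is right. Nothing in the labels says whether the 3 libraries of a group came from separate cultures, and p-values then measure the spread between these libraries only.

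Cells take up most amino acids through membrane carriers that differ in what they carry and in what drives them. SLC3A2 is a heavy chain that brings partner light chains to the cell surface: with SLC7A5 it forms LAT1, an exchanger for leucine and other large neutral amino acids, and with SLC7A11 it forms xCT, which takes up cystine in exchange for glutamate and so feeds glutathione synthesis. SLC7A1 carries arginine and lysine, SLC38A1 and SLC38A2 take up glutamine and other small neutral amino acids together with sodium, SLC1A5 exchanges glutamine, SLC1A4 exchanges serine and alanine, and SLC6A9 takes up glycine. Many of these genes are known targets of ATF4, the transcription factor that translation stress and amino acid lack switch on, and SLC7A11 is a known target of both ATF4 and the oxidative stress factor NRF2.

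In GENCODE 29 on GRCh38 all 9 are protein-coding genes. SLC7A11 lies at chr4:138164097-138242349 and SLC7A5 at chr16:87830023-87869488, both on the minus strand, and SLC3A2 at chr11:62856102-62888875 on the plus strand. SLC7A1 lies at chr13:29509410-29595688, SLC38A1 at chr12:46183063-46270017 and SLC38A2 at chr12:46358189-46372867, all on the minus strand. SLC1A4 lies at chr2:64988477-65023865 on the plus strand, and SLC1A5 at chr19:46774883-46788594 and SLC6A9 at chr1:43991500-44031467 on the minus strand. SLC7A11 shares its locus with the antisense gene SLC7A11-AS1, which reached at most 0.13 FPKM in any library.

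Of the 9 genes, 8 had an entry among RefSeq promoters (GRCh38.p14, from 250 bases before to 50 after a start), with 14 windows in all since some genes have several starts. SLC7A11 had none. The windows were searched on both strands for TGATGNAA, a core of the composite site that ATF4 binds with C/EBP partners. It was found in 5 of the 14 windows, 1 window each of SLC1A4, SLC3A2, SLC38A1, SLC7A1 and SLC1A5, and in 3.62% of 35116 promoter windows of all genes. The 5 stretches are shown so that the matched letters can be read beside the values below. Of the genes with a match, SLC7A1 and SLC1A4 rose after knockdown in each line. SLC1A5 and SLC3A2 fell in PANC1 and rose in PATU8988T, and SLC1A5 also fell in MIA PaCa-2. SLC38A1 was called in PANC1 alone, where it fell. SLC6A9, which rose in each line, had no match. Capitals mark the match, read 5′ to 3′ on the strand of the gene, and a match to these letters is a description of the sequence, not a measured binding site.
SLC1A4, chr2:64989381-64989410, plus strand: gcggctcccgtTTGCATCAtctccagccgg
SLC3A2, chr11:62881719-62881748, plus strand: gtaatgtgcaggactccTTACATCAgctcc
SLC38A1, chr12:46266502-46266531, minus strand: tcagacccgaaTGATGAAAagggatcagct
SLC7A1, chr13:29595663-29595692, minus strand: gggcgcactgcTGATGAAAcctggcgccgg
SLC1A5, chr19:46784893-46784922, minus strand: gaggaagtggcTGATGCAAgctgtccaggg
In SLC1A4 and SLC3A2 the match lies on the strand opposite to the gene. Counted from the transcript start of the window that held it, the match began at position −7 in SLC1A4, −4 in SLC38A1, −97 in SLC1A5, 7 in SLC7A1 and 37 in SLC3A2. Only in SLC7A1 was this start (chr13:29595688) the first base of the gene as placed above. Those of SLC1A4 (chr2:64989399), SLC38A1 (chr12:46266516), SLC1A5 (chr19:46784814) and SLC3A2 (chr11:62881699) are starts within the gene. For the NRF2 element, TGACNNNGC, 4 of the 14 windows held a match, of SLC3A2, SLC7A1, SLC7A5 and SLC1A5, beside 13.3% of all windows. The SLC3A2 match is shown because SLC3A2 is the partner of SLC7A11, and it began at position −37 from the same start within the gene.
SLC3A2, chr11:62881652-62881681, plus strand: cgagggtgggTGACTCAGCgtcctccttcc
The E-box CACGTG, bound by MYC and its relatives, was found in 2 of the 14 windows, of SLC7A5 and SLC1A5, and in 7.26% of all windows.

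Expression is given as FPKM, reads scaled for gene length and library size, and a fold change is a difference of log2(FPKM + 0.1) between knockdown and control, with its standard error (SE) and a p-value adjusted over all genes tested in the line. A gene was called at an adjusted p below 0.05. The 18 libraries held between 32486479 and 39797537 counted reads, recovered from the FPKM values, and a transporter had between 133 reads (SLC6A9 in PATU8988T) and 61201 reads (SLC38A2 in PATU8988T) in a library. OFD1 was lower in the knockdown libraries of each line. It fell by 53.1% of its mean in PANC1 (log2 fold change −1.07, SE 0.0901, adjusted p = 2.7e-06), fell by 55.8% in PATU8988T (−1.10, SE 0.103, adjusted p = 5.47e-05) and fell by 36.1% in MIA PaCa-2 (−0.61, SE 0.158, adjusted p = 0.0232). In MIA PaCa-2 the fold change of OFD1 was −0.76 (adjusted p = 8.76e-05) without control replicate 2, and the call was lost without any 1 of the 5 other libraries (adjusted p from 0.0604 to 0.0896) and with no filter on low values (adjusted p = 0.0504). All lines had high levels of the epithelial keratins KRT8 and KRT18, although EPCAM and CDH1 averaged 0.0249 and 0.0071 FPKM in MIA PaCa-2 and KRT19 averaged 0.00324 FPKM in PATU8988T. Of the other cell types, the T cell gene CD3E was listed at 0 in all libraries, whereas COL3A1 was above 1 FPKM in each line and PTPRC averaged 4.76 FPKM in MIA PaCa-2. Some marker lists moved with the knockdown: the summed FPKM of 5 fibroblast genes, nearly all from COL3A1, went from between 6.18 and 6.86 to between 29.7 and 30.8 in MIA PaCa-2 with DCN near 0, and that of 4 immune genes, mainly from CD68, from between 32 and 37.7 to between 17.0 and 19.5 in PANC1 and from between 49.3 and 67.4 to between 73.2 and 77.0 in MIA PaCa-2. The summed FPKM of 6 epithelial genes went from between 1050 and 1070 to between 838 and 909 in PATU8988T and from between 1620 and 2200 to between 1360 and 1390 in MIA PaCa-2. The part of these lists in the results below was not tested. The MIA PaCa-2 control replicate 2 stood apart from the other libraries. The SD of the log2 differences between this library and the other 2 controls was 0.522, against 0.148 between those 2, and between 0.142 and 0.203 for every pair of libraries in the other groups. Results in MIA PaCa-2 are therefore given with and without it where it matters.

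In the control cells the 9 genes spanned a wide range of levels. SLC38A2 had the highest FPKM of the 9 in each line, 235.9 ± 4.87 (SD, n = 3) in PANC1, 303.4 ± 6.65 (SD, n = 3) in PATU8988T and 153.4 ± 41.8 (SD, n = 3) in MIA PaCa-2, which came to 40.1%, 52.3% and 39.3% of the summed FPKM of the 9 genes. In PANC1 it was followed by SLC7A5 (101.5 FPKM), SLC3A2 (74.9), SLC38A1 (72.5), SLC1A5 (60.3), SLC7A1 (15.9), SLC6A9 (10.1), SLC1A4 (9.52) and SLC7A11 (7.70). Among these neighbours, the libraries of SLC6A9 and SLC1A4 overlapped and those of the other neighbours did not. In MIA PaCa-2 the order after SLC38A2 was SLC1A5 (77.3), SLC3A2 (60.5), SLC7A5 (58.3), SLC7A1 (17.7), SLC38A1 (16.2), SLC6A9 (3.21), SLC1A4 (2.16) and SLC7A11 (0.909), where SLC1A5, SLC3A2 and SLC7A5 overlapped with their neighbours, as did SLC7A1 with SLC38A1. In PATU8988T it was SLC3A2 (75.3), SLC7A1 (49.99) and SLC1A5 (49.97), which overlapped, SLC38A1 (42.2), SLC7A5 (33.6), SLC7A11 (22.4), SLC1A4 (1.84) and SLC6A9 (1.03).

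The cystine carrier was the most variable of the 9 between lines and, with all control libraries, the heavy chain the least. The mean control FPKM of SLC7A11 in PATU8988T was 24.6 times that in MIA PaCa-2, whereas that of SLC3A2 differed by at most 1.24 times between lines. The ratio of highest to lowest line was 9.79 for SLC6A9, 5.17 for SLC1A4, 4.49 for SLC38A1, 3.15 for SLC7A1, 3.02 for SLC7A5, 1.98 for SLC38A2 and 1.55 for SLC1A5. MIA PaCa-2 control replicate 2 lay above the other controls of that line for SLC3A2 (76.7 FPKM beside 54.1 and 50.7) and SLC1A5 (94.2 beside 68.2 and 69.4). The ratios were not worked out without it, so which of SLC3A2 and SLC1A5 varied less is not settled. SLC6A9, SLC1A4, SLC38A1 and SLC7A5 had their highest control level in PANC1, and SLC7A11, SLC3A2, SLC7A1 and SLC38A2 theirs in PATU8988T. Levels were set side by side without a test, since the gene lengths behind the FPKM differed between lines for SLC7A5, SLC7A1, SLC1A4 and SLC6A9, by at most 7.25% in SLC6A9, and more genes were listed at 0 in PANC1 than in the other lines.

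After OFD1 knockdown the direction of the transporters differed by line. In PANC1, 3 of the 9 genes rose, beside 40.1% of all 10902 genes tested, and 6 fell, beside 32.2%. In MIA PaCa-2, 3 rose and 1 fell, beside 18.7% and 21.7% of 10758 genes. In PATU8988T, 7 rose, beside 20.9% of 10698 genes, and 0 fell, beside 18.5%. The median log2 fold change of the 9 genes was −0.08 in PANC1, 0.43 in PATU8988T and 0.30 in MIA PaCa-2, and that of all genes tested was 0.06, 0.03 and −0.03. A change of over 2-fold was found for SLC7A11 in PANC1 (6.60% of all genes), for SLC1A4 in MIA PaCa-2 (7.75%) and for none of the 9 in PATU8988T (1.0%). The 9 genes were all above the median of all genes in PATU8988T, as were 6 in MIA PaCa-2 and 3 in PANC1. Of the 6 falls in PANC1, only those of SLC7A11 and SLC1A5 held when all 18 libraries shared 1 estimate of the spread.

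**Figure D1:**
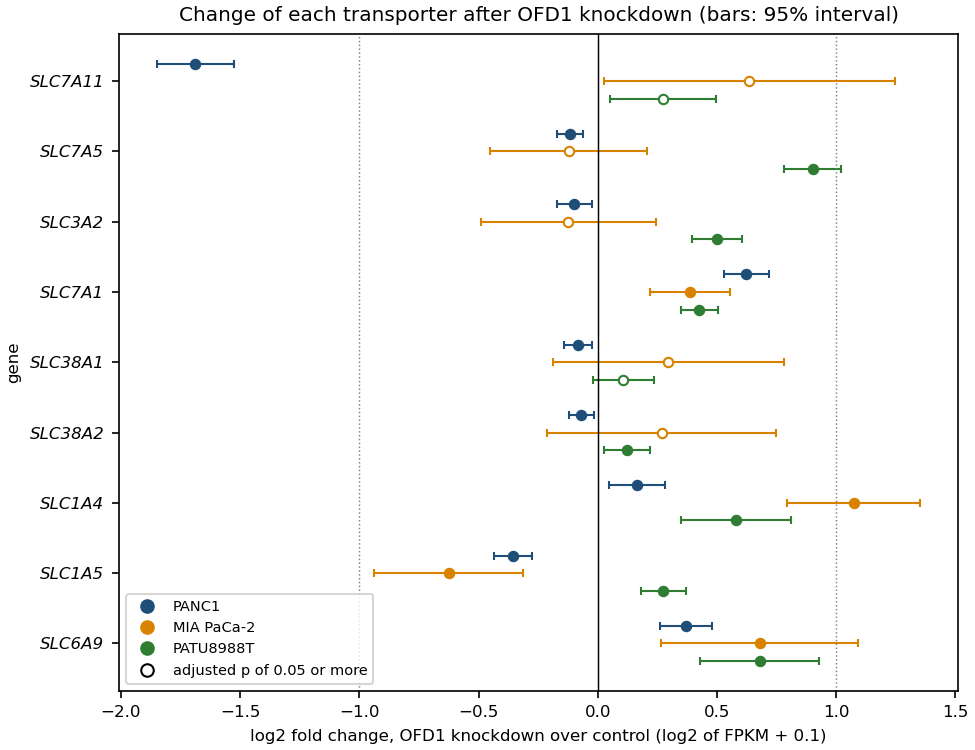
Log2 fold change of each transporter in the 3 lines (points), with 95% intervals from limma as horizontal bars. Filled points have an adjusted p below 0.05, open points do not, and dotted lines mark a 2-fold change. SLC7A11 in PANC1 lies at −1.69, apart from the other values, and SLC7A5 and SLC3A2 lie above 0 in PATU8988T (0.90 and 0.50).

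SLC7A11, the cystine and glutamate exchanger, had the largest change of the 9. In PANC1 the controls had 7.84, 7.58 and 7.68 FPKM and the knockdown libraries 2.50, 2.21 and 2.27 FPKM. Each knockdown library thus lay below each control, and the mean fell by 69.8% (log2 fold change −1.69, SE 0.0722, adjusted p = 1.82e-08). Every alternative way of fitting kept this call, with values from −1.74 to −1.39. Because RNA was taken from whole cultures, fewer cells with the transcript and less transcript per cell cannot be told apart here or in the other results.

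In MIA PaCa-2 SLC7A11 was near the lower limit of the genes tested. Its controls averaged 0.909 FPKM, below that limit of 1 FPKM, and it was tested through the level of the knockdown libraries. The controls had 1.10, 0.542 and 1.09 FPKM and the knockdown libraries 1.46, 1.38 and 1.39 FPKM. The knockdown libraries were all above the controls, but the difference did not pass the test (0.64, SE 0.256, adjusted p = 0.0887), and the second control lay below the other 2. Without that library the fold change was 0.34 (adjusted p = 0.0226). In PATU8988T, where the gene was most abundant, the controls had 22.1, 23.2 and 21.9 FPKM and the knockdown libraries 30.2, 22.3 and 29.3 FPKM. The groups overlapped through knockdown replicate 2, and the difference did not pass the test (0.27, SE 0.0984, adjusted p = 0.0508). Without replicate 2 of the knockdown it was 0.41 (adjusted p = 0.000176). Leaving out any 1 of the other libraries of this line gave an adjusted p from 0.0859 to 0.156. The difference passed the test under 5 of 15 alternatives, the run without knockdown replicate 2 among them. The change in PANC1 differed from that in MIA PaCa-2 by −2.32 (SE 0.25, adjusted p = 3e-06) and from that in PATU8988T by −1.96 (SE 0.25, adjusted p = 1.75e-05) on the log2 scale. The changes in MIA PaCa-2 and PATU8988T differed by 0.36 (95% interval −0.17 to 0.89, adjusted p = 0.245).

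SLC7A5, the light chain of LAT1, rose in PATU8988T and not in the other lines. In PATU8988T the controls had 33.2, 33.5 and 34.0 FPKM and the knockdown libraries 58.4, 67.9 and 62.4 FPKM, a rise of 87.4% in the mean with no overlap (0.90, SE 0.053, adjusted p = 4.01e-06). In PANC1 the controls had 99.8, 103 and 101 FPKM and the knockdown libraries 93.8, 92.5 and 94.3 FPKM. The mean fell by 7.87%, which was larger than the spread between libraries (−0.12, SE 0.0244, adjusted p = 0.00152). In MIA PaCa-2 the controls had 52.6, 72.0 and 50.4 FPKM and the knockdown libraries 53.6, 52.5 and 52.5 FPKM, and no change was detectable (−0.12, 95% interval −0.45 to 0.21, adjusted p = 0.512). There the second control was above all other libraries, and without it the fold change was 0.04 (adjusted p = 0.253). The change in PATU8988T exceeded that in PANC1 by 1.02 (PANC1 minus PATU8988T −1.02, SE 0.132, adjusted p = 2.02e-05) and that in MIA PaCa-2 (MIA PaCa-2 minus PATU8988T −1.02, SE 0.132, adjusted p = 1.03e-05).

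SLC3A2, the heavy chain that both light chains need, moved with SLC7A5. In PATU8988T the controls had 73.9, 71.7 and 80.3 FPKM and the knockdown libraries 104, 110 and 106 FPKM, a rise of 41.3% (0.50, SE 0.0475, adjusted p = 6.05e-05). In PANC1 the controls had 73.8, 76.5 and 74.4 FPKM and the knockdown libraries 73.2, 68.6 and 68.2 FPKM, which fell by 6.6% in the mean (−0.10, SE 0.033, adjusted p = 0.0209). That fall was lost under 5 of 15 alternatives. In MIA PaCa-2 the controls had 54.1, 76.7 and 50.7 FPKM and the knockdown libraries 54.4, 54.1 and 55.4 FPKM, again with the second control above the rest and no change past the test (−0.12, 95% interval −0.49 to 0.25, adjusted p = 0.558). The knockdown effect in PATU8988T was above that in PANC1 (PANC1 minus PATU8988T −0.60, adjusted p = 0.00458) and that in MIA PaCa-2 (MIA PaCa-2 minus PATU8988T −0.62, adjusted p = 0.00222).

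The balance of light to heavy chain transcripts differed by line and partner. SLC7A5 stood at 1.36 ± 0.00583 (SD, n = 3) times the FPKM of SLC3A2 in PANC1 controls, 0.968 ± 0.0277 (SD, n = 3) in MIA PaCa-2 controls and 0.446 ± 0.0216 (SD, n = 3) in PATU8988T controls. The ratio after knockdown was 1.34 ± 0.0512 (SD, n = 3) for PANC1, 0.968 ± 0.0188 (SD, n = 3) for MIA PaCa-2 and 0.590 ± 0.0263 (SD, n = 3) for PATU8988T, where it lay between 0.564 and 0.617 in the knockdown libraries and between 0.424 and 0.467 in the controls. SLC7A11 stood at 0.103 ± 0.00365 (SD, n = 3) times SLC3A2 in PANC1 controls and at 0.0332 ± 0.00102 (SD, n = 3) after knockdown. The corresponding ratios were 0.0163 ± 0.00799 and 0.0258 ± 0.000923 (SD, n = 3) in MIA PaCa-2 and 0.298 ± 0.0254 and 0.257 ± 0.0481 (SD, n = 3) in PATU8988T. In PANC1 the SLC7A11 ratio lay between 0.099 and 0.106 in the controls and between 0.0322 and 0.0342 after knockdown, without overlap. These ratios are of FPKM and were not tested.

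**Figure D2:**
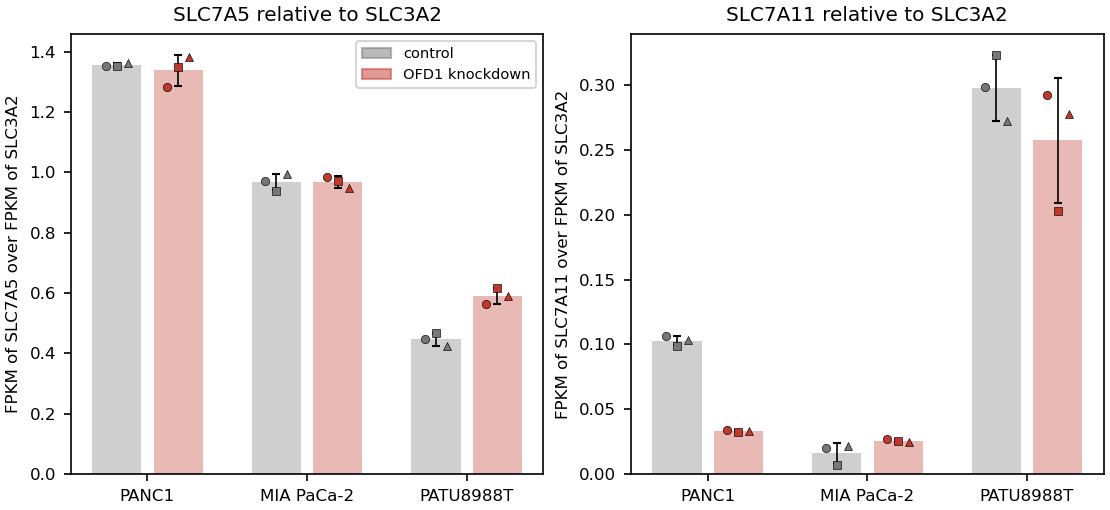
FPKM of each light chain gene divided by that of the heavy chain gene SLC3A2 in every library (linear axes from 0), with controls in grey and OFD1 knockdown in red. Bars are means of 3 libraries and error bars are SDs. In PANC1 the SLC7A11 ratio falls from 0.103 to 0.0332 while the SLC7A5 ratio is 1.36 and 1.34, and in PATU8988T the SLC7A5 ratio rises from 0.446 to 0.590.

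SLC7A1, the carrier of arginine and lysine, rose in each line. The PANC1 controls had 15.2, 16.5 and 15.8 FPKM and the knockdown libraries 23.9, 24.7 and 24.7 FPKM (0.62, SE 0.0423, adjusted p = 5.4e-07). The MIA PaCa-2 controls had 17.5, 17.8 and 17.9 FPKM and the knockdown libraries 22.8, 23.6 and 23.1 FPKM (0.39, SE 0.0704, adjusted p = 0.00617). The PATU8988T controls had 48.9, 49.99 and 51.1 FPKM and the knockdown libraries 67.1, 67.3 and 67.2 FPKM (0.43, SE 0.0342, adjusted p = 2.13e-05). The groups did not overlap in any line, the mean rose by 54.2%, 30.9% and 34.4%, and the second MIA PaCa-2 control was not apart from the other 2 for this gene. The rise in PANC1 was larger than in MIA PaCa-2 by 0.24 (SE 0.0586, adjusted p = 0.00428) and than in PATU8988T by 0.20 (SE 0.0586, adjusted p = 0.016) on the log2 scale. The rises in MIA PaCa-2 and PATU8988T differed by −0.04 (95% interval −0.16 to 0.08, adjusted p = 0.598).

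SLC1A4, the serine and alanine exchanger, also rose in each line, most in MIA PaCa-2. There the controls had 2.18, 2.27 and 2.02 FPKM and the knockdown libraries 4.72, 5.06 and 4.18 FPKM, a mean 2.16 times as high (1.07, SE 0.117, adjusted p = 0.00091). With a pseudocount of 1 the fold change was 0.84, below the 2-fold limit. In PATU8988T the controls had 1.83, 1.80 and 1.89 FPKM and the knockdown libraries 2.55, 2.63 and 3.26 FPKM (0.58, SE 0.103, adjusted p = 0.00207). In PANC1, where the gene was more abundant, the controls had 9.13, 10.1 and 9.33 FPKM and the knockdown libraries 10.5, 10.9 and 10.6 FPKM (0.16, SE 0.0529, adjusted p = 0.0175). The groups did not overlap in any line. The effects differed for all 3 pairs of lines, by −0.91 (adjusted p = 4.93e-05) for PANC1 minus MIA PaCa-2, −0.42 (adjusted p = 0.0208) for PANC1 minus PATU8988T and 0.49 (adjusted p = 0.00506) for MIA PaCa-2 minus PATU8988T. The rise in PANC1 passed the test narrowly and was lost under 4 of its 15 alternatives.

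SLC1A5, its relative and the main glutamine exchanger of many cancer cells, moved in the opposite direction in 2 of the lines. It fell in PANC1 from 61.2, 60.4 and 59.2 FPKM to 48.6, 48.1 and 44.8 FPKM, by 21.8% of the mean (−0.35, SE 0.036, adjusted p = 1.05e-05). It fell in MIA PaCa-2 from 68.2, 94.2 and 69.4 FPKM to 49.5, 49.5 and 49.4 FPKM (−0.63, SE 0.131, adjusted p = 0.0102). The second control was the highest library, and without it the fold change was −0.47 (adjusted p = 4.87e-07). In PATU8988T the gene rose from 50.04, 49.3 and 50.6 FPKM to 57.6, 63.4 and 60.5 FPKM (0.27, SE 0.0419, adjusted p = 0.000968). The PATU8988T effect differed from that in PANC1 (PANC1 minus PATU8988T −0.63, adjusted p = 0.000884) and in MIA PaCa-2 (MIA PaCa-2 minus PATU8988T −0.90, adjusted p = 1.9e-05), and no difference between PANC1 and MIA PaCa-2 passed the test (0.27, 95% interval 0.01 to 0.53, adjusted p = 0.0879).

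SLC6A9, the glycine carrier, rose in each line. In PANC1 it went from 9.65, 10.0 and 10.5 FPKM to 13.1, 13.2 and 12.9 FPKM (0.37, SE 0.0486, adjusted p = 6.7e-05). In MIA PaCa-2 it went from 2.70, 4.14 and 2.78 FPKM to 5.09, 5.14 and 5.08 FPKM (0.68, SE 0.174, adjusted p = 0.0214), and in PATU8988T from 0.974, 0.969 and 1.14 FPKM to 1.57, 1.72 and 1.83 FPKM (0.68, SE 0.111, adjusted p = 0.00143). No groups overlapped, and in MIA PaCa-2 the second control was again the one nearest to the knockdown libraries. Without it the rise there was 0.87 (adjusted p = 2.76e-06), while leaving out any 1 of the 5 other MIA PaCa-2 libraries lost the call, with adjusted p up to 0.0778. With all 18 libraries the effects did not differ past the test between any 2 lines, the nearest being PANC1 minus MIA PaCa-2 at −0.31 (95% interval −0.68 to 0.06, adjusted p = 0.166). Without MIA PaCa-2 control replicate 2 that difference was −0.50 and passed the test (adjusted p = 0.000462), the only 1 of 26 alternatives where it did. PANC1 minus PATU8988T also passed under 1 of 26 alternatives (adjusted p = 0.0118). SLC6A9 overlaps CCDC24 on the other strand, which reached 7.77 FPKM in PANC1, and whether reads were counted by strand was not given in the sources used here.

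The sodium-coupled carriers SLC38A1 and SLC38A2, neighbours on chromosome 12, changed little. SLC38A2 went from 239, 230.3 and 239 FPKM to 228, 219.5 and 227 FPKM in PANC1 (−0.07, SE 0.0237, adjusted p = 0.0232) and from 306, 308 and 296 FPKM to 346, 312 and 335 FPKM in PATU8988T (0.12, SE 0.0429, adjusted p = 0.0454). The groups did not overlap in either line, but the rise in PATU8988T was lost under 9 and the fall in PANC1 under 5 of 15 alternatives each. SLC38A1 fell in PANC1 from 73.1, 71.9 and 72.5 FPKM to 67.0, 69.3 and 69.0 FPKM (−0.08, SE 0.0261, adjusted p = 0.0156) and had 41.9, 43.1 and 41.7 FPKM in the controls and 48.4, 41.3 and 47.1 FPKM in the knockdown libraries of PATU8988T, where the groups overlapped (0.11, 95% interval −0.02 to 0.24, adjusted p = 0.163). The fall of SLC38A1 in PANC1 was lost under 3 of 15 alternatives. In MIA PaCa-2 neither gene passed the test. SLC38A2 had 176, 105 and 179 FPKM in the controls and 177, 181 and 181 FPKM after knockdown (0.27, 95% interval −0.21 to 0.75), and SLC38A1 18.9, 11.1 and 18.4 against 19.0, 19.6 and 19.4 FPKM (0.30, 95% interval −0.19 to 0.78). The second control was the lowest library for both genes, and without it the differences were 0.02 (95% interval −0.03 to 0.06) and 0.05 (95% interval −0.03 to 0.13).

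**Figure D3:**
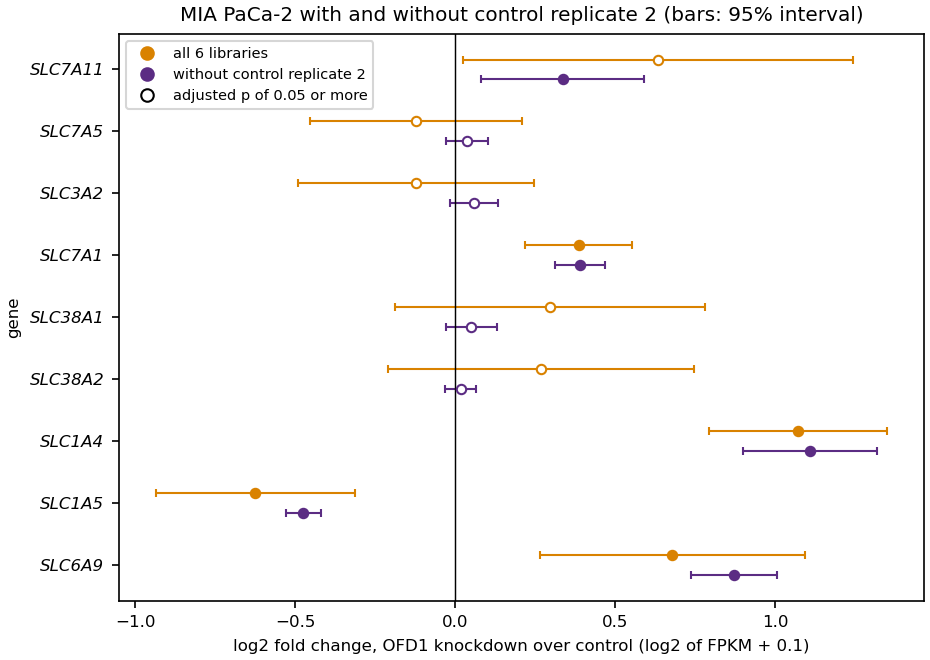
Log2 fold change of each transporter in MIA PaCa-2 with all 6 libraries (orange) and without control replicate 2 (purple), with 95% intervals as bars and open points where the adjusted p is 0.05 or more. The intervals are narrower without that library, SLC38A1, SLC38A2, SLC3A2 and SLC7A5 then lie between 0.02 and 0.06, and SLC7A1 is 0.39 in both.

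Over the 9 genes, the summed FPKM was 588.3 ± 1.496 (SD, n = 3) in PANC1 controls and 554.4 ± 6.03 (SD, n = 3) after knockdown, 389.6 ± 4.96 and 390.2 ± 2.47 (SD, n = 3) in MIA PaCa-2, and 579.7 ± 1.74 and 705.2 ± 14.5 (SD, n = 3) in PATU8988T. The sum was thus lower after knockdown in PANC1, about level in MIA PaCa-2 and higher in PATU8988T, and it is dominated by SLC38A2, whose share was 40.5%, 46.0% and 46.9% after knockdown. Its control share in MIA PaCa-2, 39.3% with an SD of 10.3%, includes control replicate 2, where SLC38A2 had 105 FPKM beside 176 and 179 in the other controls. When the knockdown effects of 2 lines were compared gene by gene, 3 of the 9 differed between PANC1 and MIA PaCa-2, beside 43.2% of 10697 genes, 6 between PANC1 and PATU8988T, beside 35.8%, and 4 between MIA PaCa-2 and PATU8988T, beside 51.1%. The 3 of the first pair were SLC7A11, SLC7A1 and SLC1A4. Without MIA PaCa-2 control replicates 1, 2 or 3 their number was 5, 6 and 6, with SLC7A5 and SLC3A2 turning to −0.16 each without replicate 2. The shares of all genes that differed in these runs were not worked out.

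How the 9 genes varied together was described over the 18 libraries after each line was centred on its mean, which mixes the knockdown effect with differences between replicates, among them the MIA PaCa-2 control that stood apart. SLC38A1 and SLC38A2 were each other's nearest gene of 9083 compared (Pearson r = 0.985, n = 18), and so were SLC7A5 and SLC3A2 (r = 0.942, n = 18). SLC1A4 and SLC6A9 had r = 0.876 and SLC7A1 and SLC6A9 r = 0.832, whereas SLC1A5 had r = −0.517 with SLC1A4. The nearest gene to SLC7A1 was XBP1 (r = 0.986), a transcription factor of the unfolded protein response, whose log2 fold changes were 0.82 in PANC1, 0.49 in PATU8988T and 0.56 in MIA PaCa-2. That to SLC1A4 was HERPUD1 (r = 0.956), which acts in degradation at the endoplasmic reticulum, and that to SLC6A9 was MARS1 (r = 0.982), the methionyl-tRNA synthetase. SLC7A11 had TMEM97 (r = 0.968), a sterol-responsive membrane protein with fold changes of −0.47, 0.17 and 0.11 in PANC1, MIA PaCa-2 and PATU8988T, and SLC1A5 had LRPAP1 (r = 0.986), a chaperone of lipoprotein receptors, with −0.49, −0.75 and 0.23.

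The ATF4 pathway, which many of these transporters answer to, was described by a list of 14 genes. In PANC1, 12 rose and 2 fell, beside 40.1% and 32.2% of all genes, in MIA PaCa-2 10 rose and 0 fell, beside 18.7% and 21.7%, and in PATU8988T 8 rose and 1 fell of 13 tested, beside 20.9% and 18.5%. The medians of the list were 0.52, 0.91 and 0.26, and those of all genes 0.06, −0.03 and 0.03. ATF4 itself rose by 0.46 (adjusted p = 8.82e-08), 0.82 (adjusted p = 0.000629) and 0.34 (adjusted p = 0.000119). CHAC1, which breaks down glutathione, rose from 0.512 to 4.06 FPKM in PATU8988T (2.77, adjusted p = 2.19e-07), by 1.20 in PANC1 and by 1.44 in MIA PaCa-2. SESN2, a leucine sensor of the mTORC1 pathway, rose by 1.23, 2.15 and 1.24 in PANC1, MIA PaCa-2 and PATU8988T, and ATF3 by 1.37, 2.38 and 1.19. TRIB3, a pseudokinase that restrains the response, was −0.08 in PATU8988T (adjusted p = 0.245), having risen by 1.03 in PANC1 and 1.80 in MIA PaCa-2. NUPR1 rose by 0.70 in PANC1 and, from 0.272 to 2.68 FPKM, by 2.93 in MIA PaCa-2. The controls averaged below 1 FPKM for NUPR1 in MIA PaCa-2 and for CHAC1 in MIA PaCa-2 (0.802) and PATU8988T. There these genes passed the limit for testing only through the knockdown libraries, and their fold changes depend on the pseudocount. The counts of genes that rose in these lines include them. The members that fell, named after their values were seen, were the kinase gene EIF2AK3 (−0.71) and the mTORC1 inhibitor DDIT4 (−0.27) in PANC1 and DDIT4 (−1.03) in PATU8988T.

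Of 10 genes of the NRF2 pathway, 1 rose and 9 fell in PANC1, beside 40.1% and 32.2% of all genes, with a list median of −0.59. In MIA PaCa-2, 1 rose and 3 fell (median −0.26), beside 18.7% and 21.7% of all genes. In PATU8988T, 1 rose and 2 fell (median −0.02), beside 20.9% and 18.5%. NFE2L2, which encodes NRF2, fell from 67.6 to 47.1 FPKM in PANC1 (−0.52, adjusted p = 5.98e-08), rose in PATU8988T (0.21, adjusted p = 0.00457) and had a log2 fold change of −0.20 in MIA PaCa-2 (adjusted p = 0.436). GCLM, a subunit of the enzyme that makes the glutathione precursor from the cysteine that SLC7A11 helps supply, fell from 4.58 to 1.56 FPKM in PANC1 (−1.497, adjusted p = 4.89e-07) and did not pass the test in MIA PaCa-2 (−0.72, adjusted p = 0.0924) or PATU8988T (−0.19, adjusted p = 0.0514). KEAP1, the inhibitor of NRF2, fell in PANC1 (−0.40, adjusted p = 0.000534) and MIA PaCa-2 (−1.28, adjusted p = 0.00238). HMOX1, the heme-degrading enzyme, rose in PANC1 (0.64) and MIA PaCa-2 (1.25) and fell in PATU8988T (−0.72). Without the second MIA PaCa-2 control, 4 genes of this list rose and 5 fell in that line, and the shares of all genes were not worked out for that run.

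**Figure D4:**
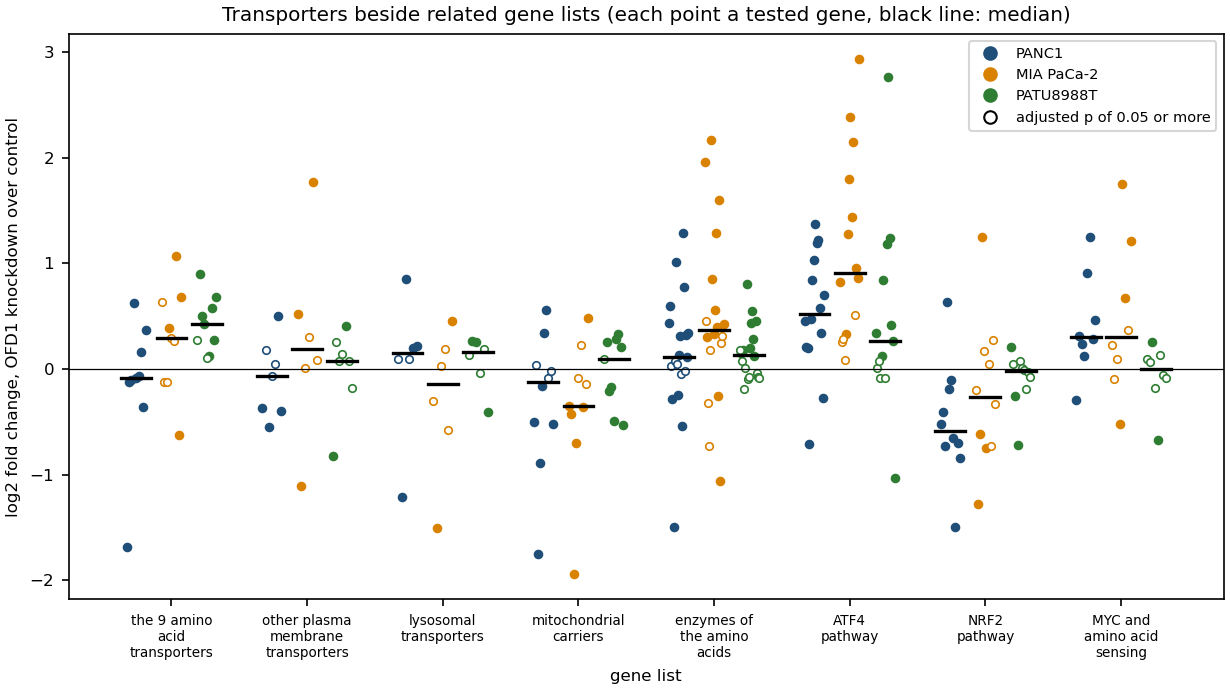
Log2 fold change (knockdown over control) of each tested gene in the 9 transporters and in 7 related lists, by line (colour). Filled points have an adjusted p below 0.05, open points do not, and black lines are medians. The ATF4 pathway has medians of 0.52, 0.91 and 0.26 in PANC1, MIA PaCa-2 and PATU8988T, and the NRF2 pathway −0.59, −0.26 and −0.02.

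Of the enzymes that use the carried amino acids, 10 rose and 4 fell of 19 in PANC1, beside 40.1% and 32.2% of all genes. In MIA PaCa-2, 10 rose and 2 fell of 18, beside 18.7% and 21.7%, and in PATU8988T 9 rose and 0 fell of 18, beside 20.9% and 18.5%. The list medians were 0.12, 0.37 and 0.14, against 0.06, −0.03 and 0.03 for all genes. CTH, which makes cysteine from cystathionine, rose by 1.01 (adjusted p = 5.4e-06), 2.17 (adjusted p = 0.000156) and 0.80 (adjusted p = 0.000448) in the 3 lines. PHGDH, the first enzyme of serine synthesis, rose by 0.31, 1.29 and 0.44, and ARG2, the mitochondrial arginase, by 1.29, 1.6 and 0.12. ASNS, asparagine synthetase, rose from 87.2 to 118 FPKM in PANC1 (0.44, adjusted p = 3.69e-07) and from 0.772 to 3.23 FPKM in MIA PaCa-2 (1.96, adjusted p = 0.000574), and was below the limit for testing in PATU8988T. In MIA PaCa-2 ASNS passed that limit only through the knockdown libraries, and the count of enzymes that rose there includes it.

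Transporters outside the 9 are given beside the shares of all genes that rose and fell, which were 40.1% and 32.2% for PANC1, 20.9% and 18.5% for PATU8988T, and 18.7% and 21.7% for MIA PaCa-2. Of 31 other plasma membrane amino acid transporters, 24 in PANC1 and PATU8988T and 25 in MIA PaCa-2 averaged under 1 FPKM and were not tested. Of those tested, 1 rose and 3 fell in PANC1, 2 rose and 1 fell in MIA PaCa-2, and 1 rose and 1 fell in PATU8988T. SLC7A6, another light chain of SLC3A2, which exchanges arginine and neutral amino acids, fell from 11.8 to 5.43 FPKM in MIA PaCa-2 (−1.11, adjusted p = 0.000297), rose from 18.9 to 25.03 FPKM in PATU8988T (0.41, adjusted p = 6.87e-05) and was −0.07 in PANC1 (adjusted p = 0.262). SLC43A1, a carrier of large neutral amino acids, rose from 1.19 to 4.27 FPKM in MIA PaCa-2 (1.77, adjusted p = 0.000342). Of 6 lysosomal transporters, 3 rose and 1 fell in PANC1, 1 rose and 1 fell in MIA PaCa-2, and 2 rose and 1 fell in PATU8988T. SLC36A1, a proton-coupled exporter of small amino acids, fell in PANC1 (−1.21) and MIA PaCa-2 (−1.51) and rose in PATU8988T (0.26). Its knockdown libraries averaged 0.721 FPKM in PANC1 and 0.497 FPKM in MIA PaCa-2, so it passed the limit for testing there through its controls. It is the lysosomal gene counted as fallen in those lines. Of the mitochondrial carriers, 2 rose and 5 fell of 10 in PANC1, 1 and 5 of 9 in MIA PaCa-2, and 4 and 4 of 9 in PATU8988T. SLC25A15, the ornithine carrier of the mitochondrial membrane, fell from 4.66 to 1.32 FPKM in PANC1 (−1.75, adjusted p = 5.5e-08), from 12.99 to 3.34 FPKM in MIA PaCa-2 (−1.94, adjusted p = 0.000181) and from 8.07 to 6.98 FPKM in PATU8988T (−0.21, adjusted p = 0.0152).

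Of 8 tested genes of MYC and amino acid sensing, 7 rose and 1 fell in PANC1, beside 40.1% and 32.2% of all genes. In MIA PaCa-2, 3 rose and 1 fell, beside 18.7% and 21.7%, and in PATU8988T 1 rose and 1 fell, beside 20.9% and 18.5%. MYC, which is known to drive SLC7A5 and SLC1A5, fell in PANC1 (−0.29, adjusted p = 0.000736) and did not pass the test in PATU8988T (0.09, adjusted p = 0.111) or MIA PaCa-2 (0.23, adjusted p = 0.0739). CASTOR1, an arginine sensor of mTORC1, rose in PANC1 (0.91) and MIA PaCa-2 (1.75) and fell in PATU8988T (−0.67, adjusted p = 0.0101). In PATU8988T its controls averaged 1.38 FPKM and its knockdown libraries 0.836 FPKM, so it passed the limit for testing there through its controls. It is the 1 gene of this list counted as fallen in that line. SESN1 rose in PANC1 (1.25) as well as MIA PaCa-2 (0.68), and so did RRAGD, a GTPase that recruits mTORC1 to lysosomes (0.47 and 1.21). Without the second MIA PaCa-2 control, the genes that rose and fell in that line were 12 and 0 of the ATF4 pathway, 14 and 4 of the enzymes, 3 and 2 of the other plasma membrane transporters, 1 and 3 of the lysosomal ones, 2 and 6 of the mitochondrial carriers and 5 and 1 of MYC and amino acid sensing. The shares of all genes that rose and fell without that library were not worked out, so these counts have no share beside them.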

How the data were processed

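The authors deposited 1 table of FPKM values for 26668 genes in 18 libraries. According to the methods of the study, reads were aligned with HISAT2, counted with HTSeq-count and scaled to FPKM. Per the labels, RNA came from a different kit than the methods name, and the submitters' processing notes list human and mouse builds (hg38, mm10, GRCm38). The PaTu source labels of replicates 2 and 3 name other cells, and the titles were followed. Tool versions, annotation and strand setting are not given in the sources used here. FPKM divided by its smallest step gave whole reads (tolerance 0.01) for all genes above 0 in each line.

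Genes averaging 1 FPKM or more over the 6 libraries of a line were fitted, line by line, as log2(FPKM + 0.1) with limma 3.58.1 in R 4.3.3 (lmFit, eBayes with trend, two-sided, Benjamini-Hochberg). A gene below 1 FPKM in 1 group could thus be tested through the level of the other group. A call needed an adjusted p below 0.05, and a 2-fold call a fold change above 2 or below 0.5. Differences between lines were interaction contrasts over all 18 libraries. With 3 libraries against 3, an exact permutation test cannot go below p = 0.1. The fits were tested on simulated data. Genes named beyond the 9 were those past both limits in at least 1 line, at most 5 per list, plus ATF4, NFE2L2, MYC and the gene most like each transporter. EIF2AK3 and DDIT4 were named after their values were seen, CCDC24 and SLC7A11-AS1 as overlapping genes, and OFD1 as the target. The transporters and lists were chosen with earlier results of these data known. Alternatives covered pseudocounts, filters, centring, voom on recovered reads, the variance model, a replicate block and leaving out each library. Gene pseudocopies SLC7A5P1 and SLC7A5P2 were not analysed here. Positions follow GENCODE 29 and RefSeq on GRCh38.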

Additional observations from a re-analysis of the deposited data

Results flagged for a closer look

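The knockdown effect of 6 transporters differed between lines by the interaction test of limma, in 13 comparisons of 27. Of all genes, 43.2% differed for PANC1 minus MIA PaCa-2, 35.8% for PANC1 minus PATU8988T and 51.1% for MIA PaCa-2 minus PATU8988T. For SLC7A11 the log2 fold change differed by −2.32 (adjusted p = 3e-06) for PANC1 minus MIA PaCa-2 and by −1.96 (adjusted p = 1.75e-05) for PANC1 minus PATU8988T. For SLC7A5 it differed by −1.02 (adjusted p = 2.02e-05) for PANC1 minus PATU8988T and by −1.02 (adjusted p = 1.03e-05) for MIA PaCa-2 minus PATU8988T, and for SLC3A2 by −0.60 (adjusted p = 0.00458) and −0.62 (adjusted p = 0.00222) for the same pairs. For SLC7A1 it differed by 0.24 (adjusted p = 0.00428) for PANC1 minus MIA PaCa-2 and by 0.20 (adjusted p = 0.016) for PANC1 minus PATU8988T. For SLC1A4 all 3 pairs differed, by −0.91 (adjusted p = 4.93e-05) for PANC1 minus MIA PaCa-2, −0.42 (adjusted p = 0.0208) for PANC1 minus PATU8988T and 0.49 (adjusted p = 0.00506) for MIA PaCa-2 minus PATU8988T, of which the second was lost without PANC1 control replicate 2 (−0.37, adjusted p = 0.0558) or PATU8988T knockdown replicate 3 (−0.31, adjusted p = 0.0581). For SLC1A5 the differences were −0.63 (adjusted p = 0.000884) for PANC1 minus PATU8988T and −0.90 (adjusted p = 1.9e-05) for MIA PaCa-2 minus PATU8988T.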

How the results depend on the processing

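Of 27 transporter changes, 17 kept their side of the threshold in every alternative run, and of 27 differences between lines 16 did. A change of sign was not counted where neither run passed the threshold. In MIA PaCa-2 the fold changes of SLC7A5 and SLC3A2 thus count as kept, although they ran from −0.22 to 0.04 and from −0.24 to 0.06. In PANC1 the number of the 9 genes that fell was 3 with eBayes without trend and 2 with all 18 libraries under 1 spread. In MIA PaCa-2 the number that rose was 1, and the number past 2-fold 0, with a mean FPKM of at least 5, which leaves out SLC1A4 and SLC6A9 by construction, and the number past 2-fold was also 0 with a pseudocount of 1. The number of effects that differed for PANC1 minus MIA PaCa-2 ranged from 3 to 6 when 1 library was left out, where the differences of SLC7A5 and SLC3A2 (0.00 and 0.02 with all libraries) ran from −0.16 each (adjusted p = 0.031 and 0.0317, without MIA PaCa-2 control replicate 2) to 0.10 and 0.14 (without control replicate 3). The share of all genes called with 1 library left out was not worked out. The replicate numbers did not pair the samples (correlations of same-numbered libraries from −0.111 to 0.13). A replicate block brought SLC7A11 in PATU8988T to an adjusted p of 0.049, SLC38A2 there to 0.0596 and the SLC7A1 difference between PANC1 and PATU8988T to 0.0547, and moved no other call of the 54. The cause of these changes was not tested. SLC7A11 in MIA PaCa-2 and SLC6A9 in PATU8988T had the fewest reads, 210 and 133 in the lowest library, and the SE of SLC7A11 in MIA PaCa-2 went from 0.256 to 0.11 without control replicate 2, so depth was not shown to be its limit.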
